A study of Mus musculus with 22 samples.

Results

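The genes described are 10 that write, remove or protect DNA methylation. They were chosen by gene symbol from the 52636 genes of the count table, not by a cut on measured values. Earlier results of these data were known at that choice. The 10 are the methyltransferases Dnmt1, Dnmt3a and Dnmt3b, the cofactors Dnmt3l and Uhrf1, the oxidases Tet1, Tet2 and Tet3, the protector Dppa3 and the histone demethylase Kdm1b. All 10 were found in the table and all 10 passed the filter on low counts in both sequencing runs.

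RNA-seq had been done on pools of fully grown germinal vesicle (GV) oocytes of C57BL/6 mice in 22 samples and 2 sequencing runs. The single-end run covered the Dicer alleles alone, without ages: 3 wild-type libraries, 3 of SOM/SOM, 4 of ΔMT/ΔMT and a single library of ΔMT/WT. A paired-end run held heterozygous controls that carry a single copy of each mutated allele (Mili DAH/WT with Dicer SOM/WT, n = 4, aged 10, 17, 36 and 38 weeks), RNAi mutants (Mili DAH/WT with Dicer SOM/SOM, n = 2, 13 and 17 weeks), double mutants (Mili DAH/DAH with Dicer SOM/SOM, n = 4, 11, 11, 35 and 40 weeks) and a piRNA mutant (Mili DAH/DAH with Dicer SOM/WT, n = 1, 16 weeks). Replicates marked o come from the older mice. Mouse oocytes make a short, highly active Dicer from a retrotransposon promoter, which feeds endogenous RNAi. The ΔMT allele lacks that promoter but keeps another, weaker one, and the SOM allele lacks the introns that hold both, so that only HA-tagged full-length Dicer is made. The SOM line came from a clone of embryonic stem cells. The DAH allele changes the catalytic triad of MILI (Piwil2), which cuts transposon RNA with piRNAs as guides. Thus the paired-end RNAi mutants and their controls share a mutated copy of Mili, and the controls have lost a normal copy of Dicer. The question taken up by the comparisons is which of the 10 transcripts differ when RNAi, the piRNA pathway or both are lost.

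Growing oocytes gain DNA methylation after birth, mainly over transcribed gene bodies and maternally imprinted regions. DNMT3A is the enzyme known to do this in mouse oocytes, with DNMT3L as its inactive partner, and KDM1B removes H3K4 methylation that would keep DNMT3A away from imprinted regions. DNMT1 copies existing marks onto new DNA with the help of UHRF1, and DPPA3 (also called Stella) holds UHRF1 back and shields the maternal genome after fertilization. The TET enzymes oxidise 5-methylcytosine, and TET3 is the form stored in the oocyte for the zygote.

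Of the 10 genes, 9 had at least 1 start in the RefSeq promoter table for GRCm38.p6, with 16 starts in all. Each window spans 300 bases, from 250 before to 50 after the start. The 4 windows printed belong to the genes called in the same direction in both runs and have a single start in the table. They are given 5′ to 3′ on the gene's strand, and capitals mark each CG, the dinucleotide on which these enzymes act.
Dnmt3b: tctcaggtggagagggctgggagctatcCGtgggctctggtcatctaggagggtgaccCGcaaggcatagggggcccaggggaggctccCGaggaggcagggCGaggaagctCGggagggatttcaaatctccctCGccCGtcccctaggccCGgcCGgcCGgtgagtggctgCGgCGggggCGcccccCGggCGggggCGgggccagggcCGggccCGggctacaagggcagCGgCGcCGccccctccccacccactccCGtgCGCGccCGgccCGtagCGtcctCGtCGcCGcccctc
Kdm1b: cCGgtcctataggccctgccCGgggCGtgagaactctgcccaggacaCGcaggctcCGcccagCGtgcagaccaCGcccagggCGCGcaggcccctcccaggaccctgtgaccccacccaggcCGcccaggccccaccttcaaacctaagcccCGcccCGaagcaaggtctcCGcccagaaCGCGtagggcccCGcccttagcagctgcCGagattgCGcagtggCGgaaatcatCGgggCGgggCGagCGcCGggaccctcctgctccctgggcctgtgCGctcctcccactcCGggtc
Tet2: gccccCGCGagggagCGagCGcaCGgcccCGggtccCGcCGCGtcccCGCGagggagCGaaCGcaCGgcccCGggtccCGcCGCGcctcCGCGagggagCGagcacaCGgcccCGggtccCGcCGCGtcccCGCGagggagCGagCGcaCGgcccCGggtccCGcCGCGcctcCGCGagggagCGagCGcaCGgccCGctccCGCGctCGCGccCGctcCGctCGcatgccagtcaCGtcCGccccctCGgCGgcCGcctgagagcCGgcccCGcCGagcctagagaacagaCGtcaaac
Tet1: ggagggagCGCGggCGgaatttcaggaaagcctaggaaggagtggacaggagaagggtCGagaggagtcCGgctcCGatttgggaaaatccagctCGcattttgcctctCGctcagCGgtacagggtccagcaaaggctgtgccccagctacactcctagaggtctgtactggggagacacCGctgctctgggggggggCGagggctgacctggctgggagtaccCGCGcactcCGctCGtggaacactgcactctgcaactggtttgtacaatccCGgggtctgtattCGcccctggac
The Dnmt3b window lies on the plus strand at chr2:153649199-153649498 and holds 30 CG, a number reached by 11.7% of the 32851 promoter windows in the table. Kdm1b (plus strand, chr13:47043249-47043548) has 26 CG, reached by 16.9%. Tet2 (minus strand, chr3:133544341-133544640) has 57 CG, reached by 0.152%. Tet1 (minus strand, chr10:62887275-62887574) has 17 CG, reached by 31.4%, against a median of 7 over all windows. The GENCODE gene extends upstream of this Tet1 window, to 62899118. The 4 windows printed, of 3 genes that rose and of Tet1, which fell, all had CG counts above the median. So did at least 1 window each of Dnmt3a (up to 47), Dnmt1 (up to 33), Uhrf1 (up to 33) and Tet3 (22). Of the genes with a start in the table, only Dnmt3l, with 3 to 6 CG, had no window above it. Dppa3 had no start there. Which start the oocytes used is not known from counts per gene.

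The libraries were oocyte libraries by their markers. The summed level of 12 oocyte markers, among them Zp3, Gdf9 and Bmp15, lay between 13307 and 16744 CPM (the reads of a gene scaled to a common library size with TMM factors) in all groups. The 16 granulosa and cumulus markers summed to between 87.2 and 164 CPM, most of it from Nr5a2, Cyp19a1 and Inhba, and the 10 blood and immune markers to between 27.3 and 65.0 CPM, almost all of it Ms4a1, with no other blood marker above 4.10 CPM. Ms4a1 was lower in SOM/SOM than in wild type (30.6 against 48.2 CPM, adjusted p = 0.00250, edgeR). Of the granulosa markers, Fshr (1.32 against 0.446 CPM) and Star (3.01 against 0.931 CPM) were called higher and Cyp19a1 (17.1 against 23.1 CPM) lower in SOM/SOM, and Lhcgr (1.22 against 0.0552 CPM) higher in ΔMT/ΔMT. In double mutants Nr5a2 was called lower (54.7 against 76.9 CPM) and the leukocyte marker Ptprc higher (0.210 CPM against 0 in all controls). Of the 12 oocyte markers, 1 was called higher and 1 lower in SOM/SOM, against 14.5% and 14.2% of all genes. In ΔMT/ΔMT, RNAi mutants and double mutants 1 was called lower each and none higher. Of all genes, 7.3%, 3.64% and 8.83% were called lower there. The part of these markers in the results was not tested. Depth ranged from 6468380 counts (SOM/SOM replicate 3) to 90713013 for single-end libraries, and from 22928936 to 43540806 for paired-end ones. Dicer1, the targeted gene, was at 41.6 to 54.4 CPM in SOM/SOM and 427 to 533 CPM in ΔMT/ΔMT, against 996 to 1048 CPM in wild type. Among paired-end libraries it was at 53.1 to 62.1 CPM in the RNAi and double mutants and 502 to 763 CPM in the controls. The ribosomal RNA gene Gm42418 split the paired-end libraries into 6 with 4083 to 5500 CPM and 5 with 294 to 557 CPM. Controls and double mutants had 2 libraries on each side, both RNAi mutants were on the high side, and the piRNA mutant was on the low side. In the single-end run, SOM/SOM replicates 1 and 3 had 12713 and 17275 CPM of Gm42418, against 4758 to 7566 in the other libraries.

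Per kilobase of exon, the protector Dppa3 was the most abundant of the 10 transcripts in control oocytes and Tet1 the least. In wild type the order was Dppa3 (1283 ± 124 CPM per kb, SD, n = 3), Dnmt1 (657 ± 27.3), Tet3 (343 ± 38.1), Uhrf1 (181 ± 8.07), Kdm1b (57.5 ± 8.20), Dnmt3a (30.2 ± 1.28), Dnmt3l (21.2 ± 2.39), Dnmt3b (6.12 ± 0.235), Tet2 (1.72 ± 0.287) and Tet1 (0.914 ± 0.191). The order in the heterozygous controls (n = 4) was the same. Each neighbouring pair was separated in every library of a group, except Tet3 and Uhrf1 in the heterozygous controls, where the lowest Tet3 library (175 CPM per kb) lay below the highest Uhrf1 library (176 CPM per kb). The de novo pair was thus led by Dnmt3a, with Dnmt3b at 0.203 ± 0.0162 of it in wild type and 0.1997 ± 0.0264 in the controls, and among the oxidases Tet3 stood above the other two in every control library.

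**Figure D1:**
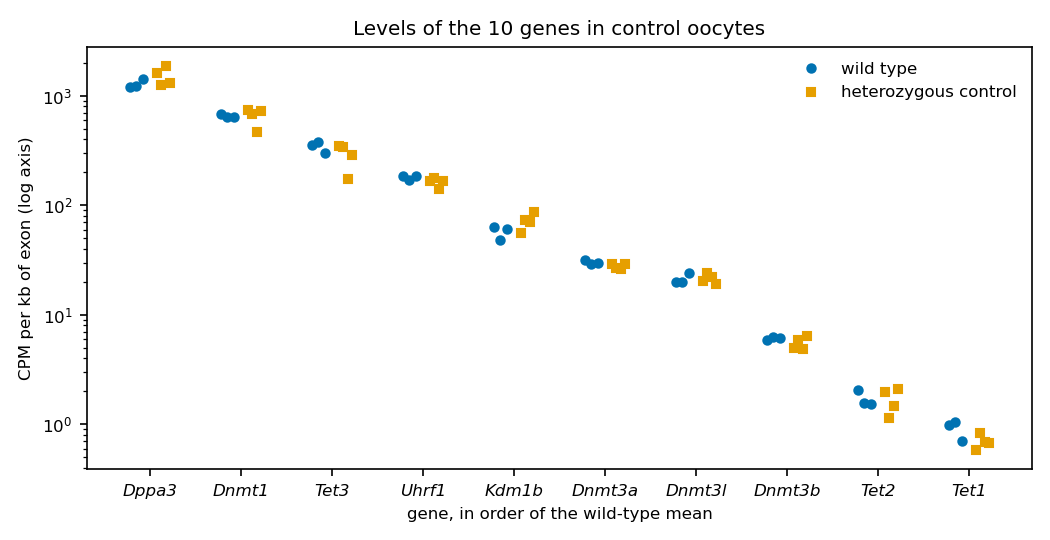
Levels of the 10 genes in each control library, as CPM per kb of exon on a log axis, for wild type (circles, n = 3) and heterozygous control (squares, n = 4). The genes span from means of 0.914 and 0.692 CPM per kb for Tet1 to 1283 and 1507 CPM per kb for Dppa3.

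Genes were called with edgeR's quasi-likelihood test at an adjusted p under 0.05 over all genes. In SOM/SOM against wild type, 3 of the 10 rose and 2 fell, against 14.5% higher and 14.2% lower of the 23151 genes tested. In ΔMT/ΔMT against wild type, 1 rose and 1 fell, against 8.06% and 7.3%. In RNAi mutants against heterozygous controls, 2 rose and 1 fell, against 7.07% and 3.64% of 20989 genes. In double mutants against the same controls, 3 rose and 3 fell, against 12.3% and 8.83%. The median log2 fold change of the 10 was -0.18, -0.18, -0.06 and -0.11 in these 4 comparisons, and that of all genes tested was 0.02, 0.01, -0.02 and -0.00. None of the 10 is on the study's list of potential siRNA targets. A library gives the share of its RNA that a gene takes, so fewer oocytes holding a transcript and less of it per oocyte cannot be told apart.

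**Figure D2:**
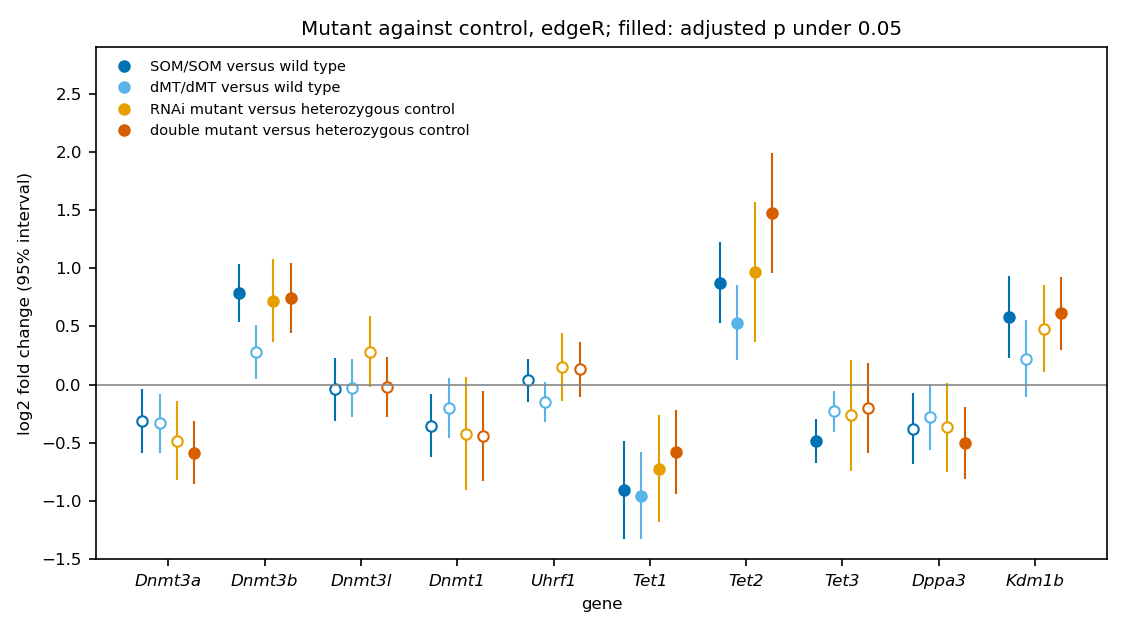
Log2 fold change of each gene with its 95% interval in the 4 comparisons of a mutant with its control (edgeR). Filled points have an adjusted p under 0.05. Tet1 is filled below 0 and Tet2 above 0 in all 4 comparisons, while Dnmt3b is filled above 0 in 3 of them.

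Among the writers, Dnmt3b rose in the groups homozygous for SOM. Dnmt3b encodes the second de novo methyltransferase, which is known for its role in the early embryo and is not needed for imprints in oocytes. Its level was 25.3, 27.3 and 26.8 CPM in the wild-type libraries and 44.7, 52.6 and 38.1 CPM in SOM/SOM. The groups did not overlap, and the 1.72-fold difference (log2 0.79, SE 0.11) had an adjusted p of 5.00e-04 by edgeR. The ΔMT/ΔMT libraries lay between them, at 31.5, 31.7, 34.2 and 31.4 CPM, above every wild-type library but with an adjusted p of 0.104 by edgeR (log2 0.28, SE 0.11). It was called with the level of Gm42418 as a covariate (adjusted p = 0.0373, edgeR) and with only the groups compared (adjusted p = 0.0192, edgeR).

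The paired-end run gave the same picture for Dnmt3b. The controls were at 21.4, 25.7, 21.2 and 27.5 CPM, the RNAi mutants at 37.3 and 41.6 CPM, and the double mutants at 34.9, 43.7, 39.6 and 41.8 CPM. No mutant library was as low as the highest control. The log2 difference was 0.72 (SE 0.17, adjusted p = 0.0117, edgeR) in RNAi mutants and 0.74 (SE 0.14, adjusted p = 0.00167, edgeR) in double mutants. Without RNAi mutant replicate 1 or 2 the first of these had an adjusted p of 0.0508 or 0.127 by edgeR. Under 20 weeks alone neither was called (0.69, adjusted p = 0.0903, and 0.75, adjusted p = 0.0543, edgeR). Some reads of Dnmt3b cannot be told from those of its tandem copy Dnmt3c: of the 4271 windows of 50 bases in the longest Dnmt3b transcript, 11.5% also occur in Dnmt3c, and the counting splits such reads. Reads of the paired-end run were longer than these windows. Dnmt3c was counted at 1.58 CPM in the controls and 6.15 CPM in double mutants, and Dnmt3b at 24.0 and 40.0 CPM. The part of shared reads in the Dnmt3b values was not tested.

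Dnmt3a, the main de novo enzyme of the oocyte, had a lower mean in every mutant group and fell in double mutants. It lay at 313, 289 and 296 CPM in wild type, at 237, 219.6, 230.2 and 266 CPM in ΔMT/ΔMT and at 269, 259 and 191 CPM in SOM/SOM. Both mutant groups lay entirely below wild type, but neither difference was called (log2 -0.33, SE 0.12, adjusted p = 0.0782, and log2 -0.31, SE 0.13, adjusted p = 0.0847, edgeR). The second was called without SOM/SOM replicate 1 (-0.41, adjusted p = 0.0495, edgeR), but shrank to -0.18 without replicate 3 (adjusted p = 0.164, edgeR) and was -0.23 with the level of Gm42418 as a covariate (adjusted p = 0.344, edgeR). The first was called by DESeq2 (adjusted p = 0.0376) and with only the groups compared (adjusted p = 0.0116, edgeR). Paired-end values of Dnmt3a were 291, 264, 259 and 286 CPM in the controls, 185 and 209.7 CPM in RNAi mutants and 209, 169, 206 and 149.7 CPM in double mutants. The double mutants stood at 0.667 of the control level (log2 -0.58, SE 0.13, adjusted p = 0.00419, edgeR), and the RNAi mutants stood at log2 -0.48 (SE 0.16) with an adjusted p of 0.0674 by edgeR. With a term for the Gm42418 sets, the difference in RNAi mutants was -0.61 with an adjusted p of 0.00608 by edgeR. It was -0.43 with the replicate block (adjusted p = 0.284, edgeR) and -0.45 with age as a covariate (adjusted p = 0.112, edgeR). In double mutants the 2 libraries low in Gm42418 had the lower Dnmt3a values, and the difference from controls, not called under 20 weeks alone (-0.61, adjusted p = 0.0868, edgeR), was -0.72 in the low set and -0.48 in the high set.

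Dnmt3b gained on Dnmt3a in the mutant libraries. The ratio of Dnmt3b to Dnmt3a, both per kb, was 0.185 to 0.217 in wild type, 0.271 to 0.340 in ΔMT/ΔMT and 0.381 to 0.466 in SOM/SOM, with no overlap between the groups. In the paired-end run it was 0.169 to 0.223 in controls, 0.455 and 0.462 in RNAi mutants and 0.382 to 0.640 in double mutants. The ΔMT/WT library (0.185) was at the low end of the wild-type range and the piRNA mutant library (0.271) was above all controls. The ratio combines values already tested and was given no test of its own.

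**Figure D3:**
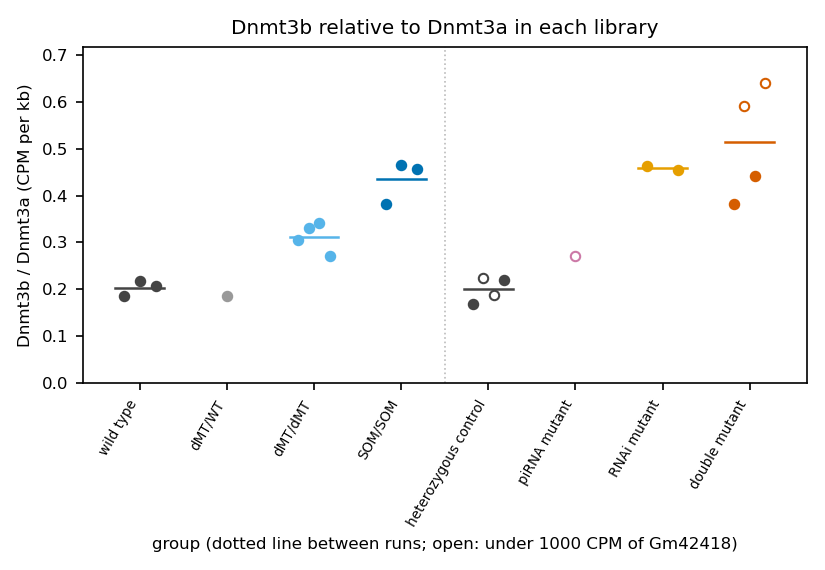
Ratio of Dnmt3b to Dnmt3a (CPM per kb) in each library by group, with bars at group means. dMT stands for ΔMT, and open circles are paired-end libraries with under 1000 CPM of Gm42418. Libraries homozygous for SOM lie at 0.381 or above and all wild-type and heterozygous control libraries at 0.223 or below.

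Dnmt3l, the catalytically inactive partner of DNMT3A, was not called in any comparison. It lay at 52.8 to 64.1 CPM in wild type, 51.0 to 59.9 in ΔMT/ΔMT and 48.9 to 63.6 in SOM/SOM, and these ranges overlapped. The controls were at 50.5 to 64.1 CPM, the double mutants at 51.4 to 59.5 CPM and the RNAi mutants at 67.5 and 71.0 CPM. The RNAi mutants lay above all controls (log2 0.28, SE 0.14, adjusted p = 0.259, edgeR), and the 95% interval of that difference ran from -0.03 to 0.59. In double mutants the interval ran from -0.28 to 0.23.

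Kdm1b, whose product clears H3K4 methylation ahead of de novo methylation, rose in SOM/SOM and in double mutants. It lay at 317, 240.4 and 303 CPM in wild type and 448, 465 and 368 CPM in SOM/SOM, with no overlap (log2 0.58, SE 0.16, adjusted p = 0.0190, edgeR). The call was lost without wild type replicate 2, SOM/SOM replicate 1 or SOM/SOM replicate 2, with adjusted p of 0.0762, 0.0535 and 0.0600 by edgeR. The ΔMT/ΔMT libraries, at 410.4, 308, 272 and 350.2 CPM, overlapped wild type (adjusted p = 0.357, edgeR). Controls of the paired-end run were at 279, 364, 349 and 429 CPM, RNAi mutants at 461 and 529 CPM, and double mutants at 535, 613, 585 and 436 CPM. Every mutant library was above every control. The increase was called in double mutants (log2 0.61, SE 0.15, adjusted p = 0.00787, edgeR) and not in RNAi mutants (log2 0.48, SE 0.17, adjusted p = 0.103, edgeR). Under 20 weeks alone the double mutant difference was 0.40 (adjusted p = 0.264, edgeR). Exons of Kdm1b overlap the gene Dek on the opposite strand over 9.99% of their length, and the counting did not use strand. Dek itself had log2 fold changes of -0.28 in SOM/SOM, 0.05 in ΔMT/ΔMT, 0.19 in RNAi mutants and -0.11 in double mutants (adjusted p = 0.0564, 0.748, 0.729 and 0.774, edgeR), and its part in the Kdm1b values was not tested.

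**Figure D4:**
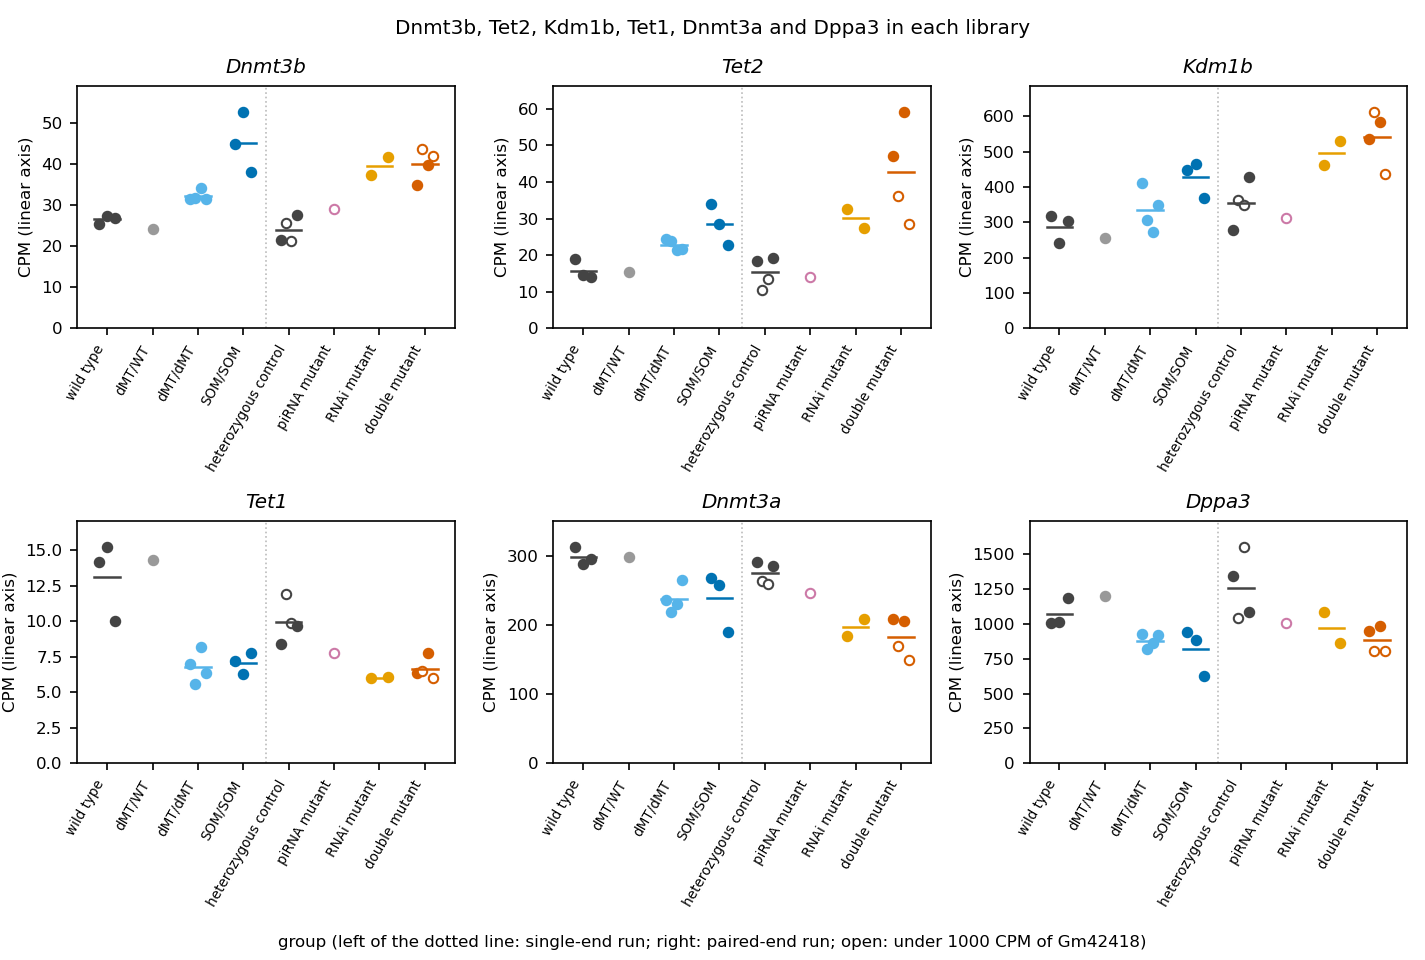
Values of Dnmt3b, Tet2, Kdm1b, Tet1, Dnmt3a and Dppa3 in each library as CPM on linear axes from 0, with bars at group means; dMT stands for ΔMT. Open circles are paired-end libraries with under 1000 CPM of Gm42418. For each gene shown, SOM/SOM and double mutant libraries do not overlap their controls. The share of all genes separated in this way was not counted.

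Of the maintenance pair, neither was called in any comparison by the main test, and the call for Dnmt1, with lower means in all 4 mutant groups, depended on the setting. Dnmt1 lay at 4338, 4069 and 4017 CPM in wild type, at 3929.8, 3433, 3222 and 3838 CPM in ΔMT/ΔMT and at 3554, 3553 and 2578 CPM in SOM/SOM. Both mutant groups were below all wild-type libraries, but with adjusted p of 0.276 and 0.0540 by edgeR neither difference was called (log2 -0.20, SE 0.12, and -0.35, SE 0.12). The lowest value belonged to SOM/SOM replicate 3, the library with the fewest counts and the most Gm42418. Without SOM/SOM replicate 3 the SOM/SOM difference shrank to -0.22 (adjusted p = 0.0948, edgeR), and with the level of Gm42418 as a covariate to -0.24 (adjusted p = 0.295, edgeR). It was called without SOM/SOM replicate 1 or 2 (adjusted p = 0.0418 and 0.0408, edgeR), with the replicate block (adjusted p = 0.0262, edgeR) and by DESeq2 (adjusted p = 0.0304). Paired-end controls, at 4711, 4284, 2952 and 4605 CPM, overlapped both the RNAi mutants, at 2824 and 3348 CPM, and the double mutants, at 4037, 2778, 3133 and 2222 CPM. The log2 differences of -0.42 (SE 0.22, adjusted p = 0.283) and -0.44 (SE 0.18, adjusted p = 0.102) were not called by edgeR. The second was called without double mutant replicate 1o (adjusted p = 0.0247) or control replicate 2 (adjusted p = 0.0309, edgeR). Dnmt1 was lower in libraries low in Gm42418, and with a term for these sets the differences were -0.63 (adjusted p = 0.0359) and -0.46 (adjusted p = 0.0228), both past the threshold of the edgeR test. In RNAi mutants the difference was -0.086 with the replicate block (adjusted p = 0.892, edgeR), -0.27 with age as a covariate (adjusted p = 0.492, edgeR) and -0.30 under 20 weeks (adjusted p = 0.548, edgeR). In double mutants it was -0.35 both with the block (adjusted p = 0.193, edgeR) and in libraries high in Gm42418 alone (adjusted p = 0.111, edgeR).

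Uhrf1, which brings DNMT1 to hemimethylated DNA, was not called in any comparison. Wild type lay at 628 to 683 CPM, ΔMT/ΔMT at 558 to 641 CPM and SOM/SOM at 639.7 to 724 CPM, and all 3 ranges overlapped. The controls lay at 513 to 645 CPM, the RNAi mutants at 645 and 674 CPM, and the double mutants at 573 to 724 CPM. The 95% intervals of the log2 differences reached at most 0.22 in SOM/SOM, 0.44 in RNAi mutants and 0.37 in double mutants. A processed copy, Gm5648, matches 44.3% of the Uhrf1 transcript at 98.3% identity and was counted at 78.8 CPM in wild type and 5.92 CPM in the heterozygous controls, so a part of the reads may be assigned to either.

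Dppa3, the protector of maternal methylation, had lower means in all mutant groups and fell in the double mutants. Wild type was at 1003, 1015 and 1188 CPM, ΔMT/ΔMT at 927, 817, 861 and 918 CPM, and SOM/SOM at 941, 886 and 623 CPM. No mutant library reached the lowest wild-type library, yet the adjusted p was 0.174 in ΔMT/ΔMT (log2 -0.28, SE 0.13) and 0.0618 in SOM/SOM (log2 -0.38, SE 0.14, edgeR). The SOM/SOM difference was called without SOM/SOM replicate 1 (adjusted p = 0.0299, edgeR) and by DESeq2 (adjusted p = 0.0302). It shrank to -0.22 without replicate 3 (adjusted p = 0.0958, edgeR) and was -0.26 with the level of Gm42418 as a covariate (adjusted p = 0.314, edgeR). Controls of the other run were at 1345, 1042, 1552 and 1082 CPM and the double mutants at 946, 806, 984 and 804 CPM, again without overlap, and the fall to 0.705 of the control level passed the test (log2 -0.50, SE 0.14, adjusted p = 0.0215, edgeR). The RNAi mutants, at 1082 and 863 CPM, overlapped the controls (adjusted p = 0.231, edgeR). The call in double mutants was lost without double mutant replicate 2o or 2 or control replicate 1o or 2, with adjusted p of 0.0577 to 0.0751 by edgeR. It was also lost under 20 weeks (adjusted p = 0.157, edgeR) and in libraries high in Gm42418 alone (adjusted p = 0.189, edgeR). In the high Gm42418 set the difference was -0.32 and in the low set -0.66. A pseudogene, Dppa3-ps, matches 54.1% of the Dppa3 transcript at 98.2% identity, so such reads are uncertain. It was counted at 43.4 CPM in wild type and 4.12 CPM in the heterozygous controls, and Gm15620, which matches a shorter stretch, at 13.6 and 0.630 CPM.

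The ratio of the target to its inhibitor was given no test of its own. Uhrf1 per kb was 0.129 to 0.155 of Dppa3 in wild type, 0.137 to 0.169 in ΔMT/ΔMT and 0.161 to 0.233 in SOM/SOM. Among paired-end libraries it was 0.0751 to 0.141 in controls, 0.141 and 0.170 in RNAi mutants, and 0.145 to 0.204 in double mutants. SOM/SOM and double mutants lay above their controls in every library, whereas ΔMT/ΔMT overlapped wild type. The lower RNAi mutant (0.1414) was barely above the highest control (0.1407). The share of gene pairs separated in this way was not counted.

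**Figure D5:**
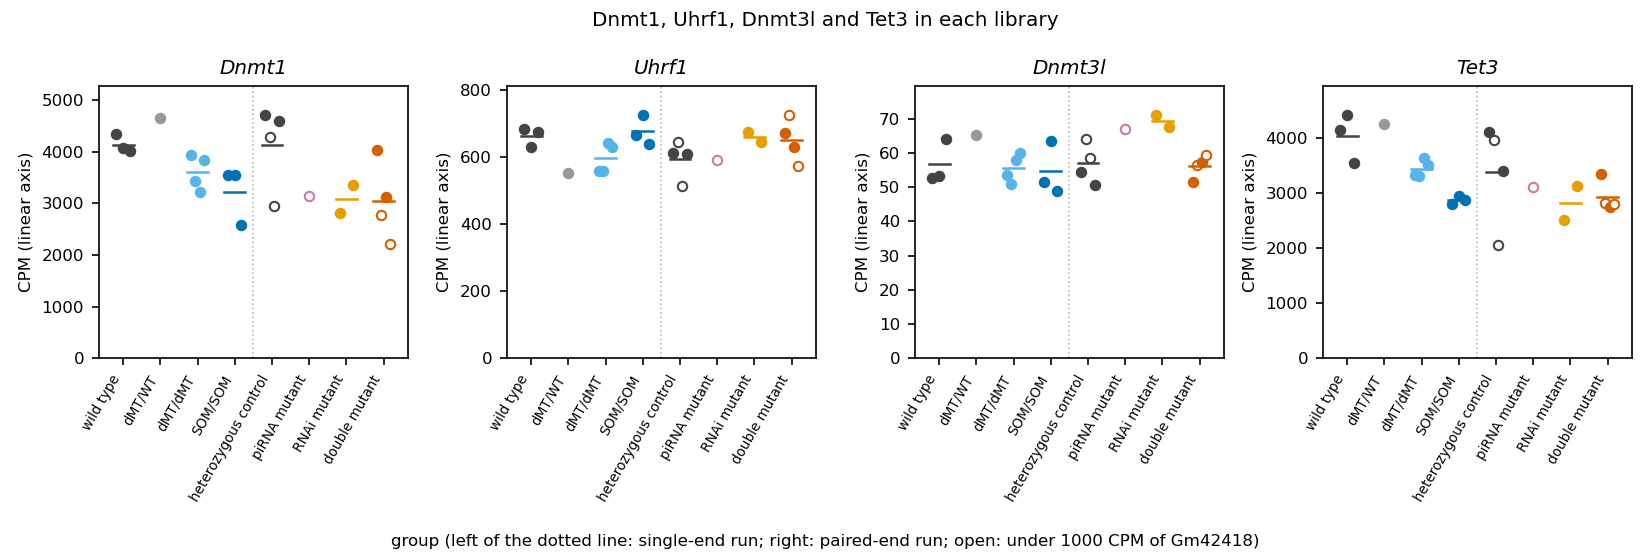
Values of Dnmt1, Uhrf1, Dnmt3l and Tet3 in each library as CPM on linear axes from 0, with bars at group means; dMT stands for ΔMT. Open circles are paired-end libraries with under 1000 CPM of Gm42418. Heterozygous control replicate 2 is the lowest control for Dnmt1 (2952 CPM), Uhrf1 (513 CPM) and Tet3 (2053 CPM).

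The oxidases did not move together. Tet1 fell and Tet2 rose in all 4 comparisons of a mutant with its control, with paired-end calls for Tet1 that other settings ended, and Tet3 fell in SOM/SOM. Tet1 has a DNA-binding CXXC domain and is known from embryonic stem cells and germ cells. It lay at 14.2, 15.2 and 10.03 CPM in wild type, at 7.002, 5.57, 8.21 and 6.36 CPM in ΔMT/ΔMT and at 7.19, 6.29 and 7.76 CPM in SOM/SOM. All mutant libraries were below all wild-type libraries, at 0.516 of the wild-type level in ΔMT/ΔMT (log2 -0.96, SE 0.17, adjusted p = 0.00384, edgeR) and 0.534 in SOM/SOM (log2 -0.90, SE 0.19, adjusted p = 0.00513, edgeR). Both calls held when each library of the groups compared was left out in turn. Paired-end values of Tet1 were 8.38, 11.9, 9.84 and 9.62 CPM in controls, 5.96 and 6.07 CPM in RNAi mutants and 6.36, 6.48, 7.74 and 6.02 CPM in double mutants, again with no overlap. The log2 differences were -0.72 (SE 0.21, adjusted p = 0.0458, edgeR) and -0.58 (SE 0.17, adjusted p = 0.0253, edgeR). The first call held only without control replicate 1o among the libraries left out in turn (adjusted p of 0.0445, otherwise 0.0575 to 0.247), and the second was lost without double mutant replicate 1o, 2o or 2 or control replicate 2o (adjusted p of 0.0615 to 0.0767, edgeR). The RNAi mutant call was also lost with the replicate block (adjusted p = 0.146), with age (0.0666) or Gm42418 (0.0717) as a covariate, with no filter (0.110), with only the groups compared (0.0612) and under 20 weeks (adjusted p = 0.161, edgeR). That in double mutants was lost with the block (adjusted p = 0.0666), with no filter (0.0696), under 20 weeks (0.291) and in libraries high in Gm42418 (log2 -0.32, adjusted p = 0.338, edgeR). The double mutants differed from controls by -0.36 (log2) within the high Gm42418 set and by -0.79 within the low set.

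Tet2, which lacks the CXXC domain, rose in all 4 comparisons. It lay at 18.8, 14.5 and 14.1 CPM in wild type, at 24.5, 23.8, 21.5 and 21.7 CPM in ΔMT/ΔMT and at 34.1, 28.5 and 22.9 CPM in SOM/SOM. Both mutant groups were above all wild-type libraries, 1.44-fold in ΔMT/ΔMT (log2 0.53, SE 0.15, adjusted p = 0.0333, edgeR) and 1.83-fold in SOM/SOM (log2 0.87, SE 0.16, adjusted p = 0.00203, edgeR). The ΔMT/ΔMT call was lost without wild type replicate 2 or 3 or ΔMT/ΔMT replicate 1, 2 or 4 (adjusted p of 0.0548 to 0.126, edgeR). In the other run Tet2 was at 18.3, 10.5, 13.4 and 19.3 CPM in controls, at 32.7 and 27.4 CPM in RNAi mutants and at 47.1, 36.1, 59.1 and 28.5 CPM in double mutants. No mutant library was as low as any control, with 1.95-fold in RNAi mutants (log2 0.97, SE 0.28, adjusted p = 0.0419, edgeR) and 2.78-fold in double mutants (log2 1.47, SE 0.24, adjusted p = 5.69e-04, edgeR). Libraries low in Gm42418 had the lower Tet2 values in both controls and double mutants. Within the high set the log2 difference was 0.67 in RNAi mutants and 1.49 in double mutants, and within the low set it was 1.43 in double mutants. The RNAi mutant call was lost without either RNAi mutant library or without control replicate 2o or 2, with adjusted p of 0.0883 to 0.273 by edgeR. It was also lost with the replicate block (adjusted p = 0.0571), with age as a covariate (0.0779) and under 20 weeks (adjusted p = 0.179, edgeR), while the call in double mutants held in each of these.

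Tet3, the maternal oxidase that acts in the zygote, fell in SOM/SOM. Wild type was at 4147, 4411 and 3539 CPM, ΔMT/ΔMT at 3321, 3311, 3635 and 3505 CPM and SOM/SOM at 2802, 2949.8 and 2869 CPM. The SOM/SOM libraries were tightly grouped below all others of the run, at 0.715 of the wild-type level (log2 -0.48, SE 0.09, adjusted p = 0.00169, edgeR), while ΔMT/ΔMT overlapped wild type (log2 -0.23, SE 0.08, adjusted p = 0.0750, edgeR; without wild type replicate 3, adjusted p = 0.0198). In the paired-end run the controls spread from 2053 to 4110.4 CPM and took in the RNAi mutants, at 2514 and 3118 CPM, and the double mutants, at 3347, 2819.7, 2748 and 2808 CPM. Neither difference was called (adjusted p = 0.537 and 0.476, edgeR). The lowest control was replicate 2, and without it the double mutants differed by -0.37 (log2) with an adjusted p of 0.0359 by edgeR.

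Between the 2 Dicer mutants, only Dnmt3b was called. In SOM/SOM against ΔMT/ΔMT, 1 of the 10 genes rose and none fell, against 4.03% higher and 3.32% lower of all genes. Dnmt3b was 1.42-fold higher in SOM/SOM (log2 0.51, SE 0.11, adjusted p = 0.0164, edgeR) with no overlap. Without ΔMT/ΔMT replicate 2 or SOM/SOM replicate 2 the adjusted p was 0.0539 or 0.0525 by edgeR. Not called between the alleles were, among others, Kdm1b at 0.36 (95% interval 0.03 to 0.68), Tet2 at 0.34 (0.02 to 0.66) and Tet3 at -0.25 (-0.43 to -0.08) on the log2 scale.

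No difference was called between oocytes lacking RNAi and oocytes lacking RNAi and MILI activity. In double mutants against RNAi mutants edgeR called none of the 10 genes, none had an unadjusted p under 0.05, and DESeq2 called 0, against a background of 0.31% higher and 0.00476% lower. The log2 differences ran from -0.30 for Dnmt3l (95% interval -0.61 to 0.00) to 0.51 for Tet2 (-0.12 to 1.14). Both sets of libraries were compared with the same controls above. The piRNA mutant, a single library with no test, lay within the control range for Dnmt1, Uhrf1, Tet2, Tet3 and Kdm1b. It lay above it for Dnmt3b (29.1 CPM against at most 27.5) and Dnmt3l (67.1 against 64.1), and below it for Dnmt3a (246 against at least 259), Tet1 (7.76 against 8.38) and Dppa3 (1007 against 1042).

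The ΔMT/WT library, also without a test, lay within the wild-type range for Dnmt3a, Tet1, Tet2, Tet3 and Kdm1b, above it for Dnmt1 (4650.4 CPM), Dnmt3l (65.3) and Dppa3 (1201), and below it for Dnmt3b (24.2) and Uhrf1 (552). For Tet1 and Tet2, the 2 genes called in ΔMT/ΔMT, the heterozygote was at 14.3 and 15.5 CPM, outside the range of the homozygotes.

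Age of the mice could be examined in controls and double mutants, each with 2 libraries from mice over and 2 from mice under 20 weeks. None of the 10 genes was called between older and younger mice by edgeR or DESeq2, none had an unadjusted p under 0.05, and of all 18641 genes tested 0% were called. The log2 differences ran from -0.15 for Tet2 (95% interval -0.70 to 0.40) to 0.34 for Tet3 (-0.01 to 0.69). Tet3 and Uhrf1 were higher in both older libraries than in both younger ones within each group. The Tet3 means were 4036 against 2722 CPM in controls and 3083 against 2778 CPM in double mutants. Dnmt3l was lower in both older double mutants (means of 53.9 against 58.4 CPM) and overlapped in controls. The share of all genes separated by age in this way was not counted.

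The effect of SOM/SOM was measured in both runs, in 2 different backgrounds. The difference between the 2 effects was called for none of the 10 genes by edgeR or DESeq2, with 0 at an unadjusted p under 0.05, and for 0.00806% of the 24824 genes tested. It ran from -0.35 for Dnmt3l (95% interval -0.74 to 0.03) to 0.14 for Dnmt3a (-0.29 to 0.56) on the log2 scale. The run, the read type, the Mili genotype and the Dicer genotype of the controls (wild type or SOM/WT) changed together and cannot be told apart.

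A list of 53 other genes of DNA methylation (readers, repair enzymes of oxidised bases, cofactors and imprint factors) was tested in the same fits. In SOM/SOM 11 of the 47 tested rose and 7 fell, against 14.5% higher and 14.2% lower of all genes. In ΔMT/ΔMT 6 rose and 6 fell, against 8.06% and 7.3%. In RNAi mutants 4 of 50 rose and none fell, against 7.07% and 3.64% of all genes. In double mutants 6 rose and 2 fell, against 12.3% and 8.83%. The median log2 fold change of the list was 0.05, -0.01, 0.14 and 0.02 in these comparisons. None was called between double and RNAi mutants, between ages or between the effects in both runs. Of all genes, at most 0.31% were called in a direction there.

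Neil3, a DNA glycosylase that removes oxidised bases, rose from 302 to 637 and 603 CPM in RNAi and double mutants (log2 1.08 and 0.997, adjusted p = 4.08e-04 and 1.01e-04, edgeR). Dnmt3c, known from male germ cells, had log2 fold changes of 1.93 and 1.95 there (adjusted p = 1.81e-04 and 2.71e-05, edgeR). Its change in SOM/SOM against ΔMT/ΔMT was 0.99 (adjusted p = 0.0236, edgeR). Those of Dnmt3b were 0.72, 0.74 and 0.51 in the same comparisons. The part of reads shared with Dnmt3b in the Dnmt3c values was not tested.

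The 2 largest rises of the list in the single-end run were from low levels. The glycosylase gene Neil1 was at 0.215 CPM in wild type, 1.09 in ΔMT/ΔMT and 1.52 in SOM/SOM (log2 2.32 and 2.84, adjusted p = 9.64e-04 and 1.59e-04, edgeR). Ehmt2, an H3K9 methyltransferase gene, was at 0.589, 1.67 and 3.81 CPM (log2 1.502 and 2.68, adjusted p = 0.00499 and 8.90e-05, edgeR), and the difference between the mutants was also called (log2 1.17, adjusted p = 0.0221, edgeR). Mbd4, a glycosylase that acts at methylated CG, rose 1.99-fold in ΔMT/ΔMT (adjusted p = 0.00387, edgeR). The largest falls were in Trdmt1 (Dnmt2, a tRNA methyltransferase), to 0.386 in SOM/SOM and 0.611 in ΔMT/ΔMT of the wild-type level (adjusted p = 9.01e-04 and 0.0283, edgeR). Cdyl and the methionine adenosyltransferase gene Mat2a fell to 0.657 and 0.666 in SOM/SOM (adjusted p = 0.0218 and 0.0253, edgeR). Zbtb33 and Ctcf fell to 0.740 and 0.754 in ΔMT/ΔMT (adjusted p = 0.0396 and 0.0362, edgeR). Hells, a chromatin remodeller needed for DNA methylation, and Cdyl fell to 0.712 and 0.727 in double mutants (adjusted p = 0.0178 and 0.0423, edgeR).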

How the data were processed

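RNA-seq of mouse GV oocytes was analysed from the table deposited by the authors, which holds estimated counts for 52636 GENCODE M15 genes in 22 libraries. Per the submitters' notes and the study's methods, the authors mapped reads with STAR 2.5.3a to GRCm38 and counted with featureCounts without regard to strand, giving each of several genes or places a fraction of a read. The deposited estimated counts are not normalized, and they were rounded to whole numbers. Reads shared by copies or overlapping genes are split, which can blur their differences.

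Each run was fitted on its own in edgeR 4.0.16 (R 4.3.3): TMM factors, genes with a count of 10 at median depth in enough libraries and a total of 15, the quasi-likelihood F test, and Benjamini-Hochberg adjustment over all genes at 0.05. The ΔMT/WT library stayed out of the fits, and the piRNA mutant was in the paired-end fit without a test. Age was fitted over controls and double mutants, and the difference between runs over 21 libraries. Levels are TMM-scaled CPM, divided by exon length where genes are compared. SE is the fold change over the root of F. At the lowest depth 3 counts are 0.464 CPM, and such floors cover counting error only. Samples were grouped by labelled genotype. The labels do not state that libraries come from separate mice. Ages differ within each paired-end group apart from double mutant replicates 1 and 2, both at 11 weeks, so the others come from different mice. The single-end run has no ages. The study describes its RNA-seq replicates as biological. P-values measure the spread between these samples, part of which may be technical. Replicates differed beyond sampling noise (chi-square per gene of 12.1 to 98.0 over 6 groups) and were all counted. Alternatives were DESeq2 1.42.0, RLE factors, no filter, only the groups compared, the replicate number as a block, age, the level of Gm42418, and each library left out. A term for libraries under and over 1000 CPM of Gm42418, and a fit of the latter alone, were added after seeing the values. Copies were sought with blastn 2.17.0 among GENCODE M21 transcripts (at least 95% identity over 100 bases). Promoters are those of RefSeq (GRCm38.p6). The test script was tested on simulated data. The second deposited file, of retrotransposon groups, was not used.

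The 10 genes, the list of 53 and the marker lists were chosen with earlier results of these data known. Named genes are all 10, Dicer1, and of the list up to 3 largest rises and 3 largest falls per comparison among called genes with a mean of at least 1 CPM in a group and no overlap between libraries. A gene that this rule names is not reported here.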

Additional observations from a re-analysis of the deposited data

Results flagged for a closer look

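A library far from the rest of its group was sought for each of the 10 genes in the 3 groups of 4, which makes 30 groups of values, of which chance alone marks about 1 in 20. Dnmt3b in ΔMT/ΔMT replicate 3 (34.2 CPM) stood above the other 3 libraries, at 31.4 to 31.7 CPM, by 0.896 of the group's range. Tet3 in double mutant replicate 1o (3347 CPM) stood above the other 3, at 2748 to 2819.7 CPM, by 0.881 of the range. That library has the most Gm42418 of the paired-end run (5500 CPM), and the part of this in its Tet3 value was not tested.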

How the results depend on the processing

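Whether the replicate numbers pair the samples was not settled by the correlations of deviations from group means. In the single-end run same-numbered libraries correlated at -0.02 to 0.088 and differently numbered ones at -0.12 to 0.12. In the paired-end run the ranges were -0.15 to 0.26 and -0.30 to 0.18. With the replicate block, 0 of the 10 genes were called in SOM/SOM against ΔMT/ΔMT (1 without) and 1 in RNAi mutants against controls (3 without). It called 6 in SOM/SOM against wild type (5 without) and 5 in double mutants against controls (6 without). The counts in the other comparisons fitted with the block were the same. Over all genes the block called 627 higher and 560 lower in SOM/SOM against ΔMT/ΔMT (934 and 768 without). In RNAi mutants it called 894 and 334 (1484 and 763 without). These numbers were 2934 and 2964 in SOM/SOM against wild type (3351 and 3276 without). In double mutants they were 2075 and 1306 (2592 and 1854 without).

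With only the groups compared, 5 genes were called in ΔMT/ΔMT against wild type in place of 2. Over all genes that setting called 2597 higher and 2710 lower there, against 1866 and 1690 by the main test. DESeq2 called 2 in SOM/SOM against ΔMT/ΔMT. With age as a covariate 1 was called in RNAi mutants, and over all genes 1370 higher and 681 lower (1484 and 763 without). With animals under 20 weeks only, 0 were called in RNAi mutants and 1, Tet2, in double mutants, where fewer libraries were compared. Over all genes 951 were called higher and 402 lower in RNAi mutants under 20 weeks (1484 and 763 with all ages). In double mutants these numbers were 1397 and 535 (2592 and 1854 with all ages). Leaving out each library in turn gave 1 to 2 called in ΔMT/ΔMT against wild type, 0 to 1 in SOM/SOM against ΔMT/ΔMT and 0 to 3 in RNAi mutants. Where this left a group with 1 library, that library was assumed to vary like the other groups. Of the called genes' values under the other settings, 116 stayed called, 22 did not and 0 changed sign, and with a library left out these numbers were 88, 29 and 0. Of genes not called, 20 values became called under other settings and 8 with a library left out. Over all genes, DESeq2 called 1423 higher and 1353 lower in SOM/SOM against ΔMT/ΔMT (934 and 768 with edgeR), 1265 lower in RNAi mutants against controls (763), 155 and 15 between double and RNAi mutants (65 and 1), 10 and 40 between ages (0 and 0) and 72 and 49 for the difference between runs (1 and 1).

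Changes of sign were limited to genes that were not called. Dnmt3l was at log2 0.082 in SOM/SOM with Gm42418 as a covariate, and in double mutants at 0.11 under 20 weeks and 0.079 in libraries high in Gm42418. Tet3 was at 0.10 in RNAi mutants with the block, and under 20 weeks at 0.042 in RNAi mutants and 0.036 in double mutants. With a library left out, Dnmt3l ranged from -0.17 to 0.049 in SOM/SOM, from -0.079 to 0.066 in ΔMT/ΔMT and from -0.075 to 0.041 in double mutants, Uhrf1 from -0.019 to 0.075 in SOM/SOM, and Tet2 from -0.34 to 0.10 between ages. The causes were not tested. Tet1 had the lowest CPM of the 10 genes.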
